A study of Mus musculus with 2 samples.

Results

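Lyve1-positive macrophages are C1q-expressing macrophages of the tumor that carry transcripts of Lyve1, a hyaluronan receptor first known from lymphatic vessels. Cells were chosen by measured UMI counts (a UMI marks 1 captured transcript). A member had at least 1000 UMIs, at least 200 genes and at most 5% of UMIs from mitochondrial genes. It also had at least 0.3% of its UMIs from C1qa, C1qb and C1qc, and at least 1 UMI of Lyve1. At most 1 UMI of the proliferation genes Top2a, Mki67, Birc5 and Ube2c was allowed, and at most 2 UMIs of the tumor cell transcripts Krt8, Krt18 and Cdkn2a. Of 37971 barcodes, 36642 passed the quality filters, and 134 were Lyve1-positive macrophages, 60 in the iIRE library and 74 in the control library. They were set beside the 1171 cells that met every other criterion but had no Lyve1 UMI, called Lyve1-negative here, of which 555 were in the iIRE library and 616 in the control library.

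The libraries came from orthotopic tumors in the pancreas, seeded with KPC cells (a line from mouse pancreatic cancer) in C57BL/6 mice. The iIRE group had tumors treated by insufficient irreversible electroporation, in which needle electrodes give short high-voltage pulses that permeabilize cell membranes and leave residual tumor, and was sampled 3 days later. The control group had the same tumors without pulses, described as untreated in the study's results and as needle insertion alone in its methods. Each group was 1 library of whole dissociated tumor, with no sorted population, and the number of mice behind each library was not given. No difference between the groups could therefore be tested, and the values describe these 2 libraries. Intervals given below are exact 95% intervals for counting error alone, without the spread between cells or mice.

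Macrophages of this kind lie along vessels and in connective tissue of many organs, where they are known for taking up debris and extracellular matrix, for low MHC class II and Ccr2, and for slow replacement by blood monocytes. In the pancreas, macrophages seeded before birth are known to persist into tumors beside macrophages that derive from monocytes. Lyve1 itself (ENSMUSG00000030787) is a protein-coding gene of 6 exons on the minus strand at chr7:110850607-110863239 of mm10.

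The label was checked against marker genes. UMIs of the macrophage markers Adgre1, Csf1r, Cd68, Fcgr1, Mertk, Aif1 and Ptprc were found in 60 of 60 members of the iIRE library and 73 of 74 of the control library, at 3325 and 3368 CPM (counts per 1e6 UMIs, summed over the cells). Since Lyve1 also marks lymphatic endothelium, the lymphatic genes Prox1, Flt4, Mmrn1, Ccl21a and Reln were examined, and each was at 0 UMIs in the members of both libraries. For Ccl21a, only the first of the gene entries with that name was counted. Only Pdpn of that list was found, at 26 UMIs in the iIRE library and 75 in the control library. Blood endothelial markers gave 1 and 3 UMIs, markers of T and NK cells 2 and 0, and markers of B cells and red blood cells 0 in both. Gata6, which defines large peritoneal macrophages, was at 0 in all members. The 6 listed markers of those macrophages, Timd4 among them, gave 16 UMIs in the iIRE members and 39 in the control members, 22 of the latter in 1 cell. They stood at 42.7 and 70.1 CPM, against 20.3 and 45.2 CPM in the Lyve1-negative cells. Dendritic cell markers gave 0 UMIs in the iIRE library and 22 in the control library, 19 of them in 1 cell. Transcripts of acinar cells, the enzyme-secreting cells of the pancreas, stood at 301 CPM in the iIRE members and 171 CPM in the control members, against 141 and 90 CPM in the Lyve1-negative cells of the same libraries. Their part in the results was not tested.

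Depth differed between the libraries. Barcodes were assigned to libraries by their ending and the library number in the sample descriptions, which made the iIRE library the shallower one per cell. The study's text describes the iIRE cells as the deeper ones. By its own cell labels it also reports a larger share of macrophages after iIRE. Here C1q-gated cells were 615 of the 18828 cells past the quality filters in the iIRE library and 690 of 17814 in the control library. The iIRE group has more cells in the study, as it does here. These differences were not resolved, so each direction of iIRE against control rests on that assignment. Members had a median of 5492.5 UMIs and 2093 genes in the iIRE library and 8024 UMIs and 2576.5 genes in the control library, and together held 375023 and 556331 UMIs. Lyve1-negative cells had medians of 5132 and 6405 UMIs. No barcode occurred among the members of both libraries, and 3 members had a barcode that was found anywhere in the other library, of 458 such barcodes in all. Doublets were not called, so a member may hold transcripts of more than 1 cell.

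Lyve1 was unevenly spread among the members. The members carried 239 Lyve1 UMIs in the iIRE library and 363 in the control library, at 637 and 652 CPM, while tumor-type cells (at least 10 UMIs of Krt8, Krt18 and Cdkn2a and none of Ptprc) stood at 0.859 and 0.589 CPM. A single Lyve1 UMI was found in 21 of the 60 iIRE members and 29 of the 74 control members, and 5 or more in 18 and 25. The median was 2 UMIs in both libraries, and the highest cell had 33 UMIs in the iIRE library and 37 in the control library. In tumor-type cells at a median of 9297 and 12290 UMIs, a Lyve1 UMI was found in 1.04% and 0.852% of cells.

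The share of Lyve1-positive cells was similar in size in both libraries, within wide intervals. They made up 9.76% (7.53 to 12.4%) of the C1q-gated cells in the iIRE library and 10.7% (8.52 to 13.3%) in the control library, a log2 ratio of -0.14 (-0.65 to 0.37). Of all cells past the quality filters, they made up 0.319% and 0.415%, a log2 ratio of -0.38 (-0.90 to 0.13). Both intervals include no difference as well as shares lower and higher in the iIRE library. After each cell was thinned to 2000 UMIs before the Lyve1 criterion, the share among C1q-gated cells was 6.18% in the iIRE library and 7.22% in the control library. Over all C1q-gated cells, Lyve1 stood at 71.8 CPM in the iIRE library and 79.2 CPM in the control library, a log2 ratio of -0.14 (-0.38 to 0.10).

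Few cells lay near the C1q threshold, and more near the other limits. Members with 0.3% to under 0.5% of UMIs from C1q genes numbered 3 in the iIRE library and 5 in the control library, and 0 and 1 cells lay between 0.2% and 0.3%. With 1 or 2 UMIs of Krt8, Krt18 and Cdkn2a there were 14 and 18 members. With 1 proliferation UMI there were 13 and 17 members, and just outside, with 2, there were 7 and 6 cells, whose Lyve1 stood at 714 and 1433 CPM. Most Lyve1 transcripts of C1q-positive cells did not belong to members in the iIRE library. There, the proliferation and tumor transcript limits left out 56 cells with Lyve1 that held 386 UMIs, against the 239 of the members. In the control library they left out 46 such cells with 325 UMIs, against 363. Cells past the proliferation limit alone were the larger part of them, 37 cells with 257 Lyve1 UMIs in the iIRE library and 27 cells with 188 in the control library.

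Levels were next compared between Lyve1-positive and Lyve1-negative cells within each library. A gene counted as called when its log2 ratio, after 10 CPM was added to both levels, was past 1.5-fold (0.58 on the log2 scale) in the same direction in both libraries, with at least 50 UMIs over the cells compared in each. Because the members were selected on Lyve1 in the same cells, these values describe the cells and carry no test. Intervals of gene ratios were taken from the counts alone, without the 10 CPM, so a ratio need not lie in their middle. Of 6455 genes, 188 were higher in the Lyve1-positive cells (2.91%) and 221 were lower (3.42%). The median log2 ratio over all of them was 0.00 in the iIRE library and 0.05 in the control library.

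Genes of resident-like macrophages were higher as a group. Of the 20 listed genes, 15 had enough UMIs, and each of the 15 was higher in the Lyve1-positive cells of both libraries. Their median log2 ratios were 1.80 in the iIRE library and 1.92 in the control library. Lyve1 is among the 15 and was higher by the rule that chose the cells. The list was made with earlier results of these data known, so it is no independent check of the label. Timd4 and Vsig4 had too few UMIs to count, and Cd209d, Cd209f and Cd209g were nearly or fully at 0. Fcna, which encodes the lectin ficolin A, differed most after Lyve1. In the iIRE library it stood at 936 CPM in the Lyve1-positive cells and 58.2 CPM in the Lyve1-negative cells, and in the control library at 759 and 64.8 CPM, which gave log2 ratios of 3.79 and 3.36. A UMI of Fcna was found in 76.7% and 74.3% of the Lyve1-positive cells, in 17.3% and 19.6% of the Lyve1-negative cells, and in 2.31% and 2.53% of tumor-type cells. At 2000 UMIs per cell these shares were 56.9% and 53.5%, 8.66% and 9.19%, and 0.481% and 0.486%, and the order of the groups was the same.

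The genes that followed Fcna were Ednrb (endothelin receptor B), the chemokine Ccl8, the hemoglobin scavenger receptor Cd163, Wfdc17, the carbonyl reductase Cbr2, the leukotriene synthase Ltc4s, the phosphatidylserine bridging ligand Gas6 and the sialic acid lyase Npl. Ccl8 stood at 1192 CPM in Lyve1-positive against 241 CPM in Lyve1-negative cells of the iIRE library, and at 1582 against 167 CPM in the control library. Cd163 was rare, with 35 and 52 UMIs in 11 and 20 members, and stood at 93.3 and 93.5 CPM in the Lyve1-positive against 12.2 and 11.9 CPM in the Lyve1-negative cells. Ednrb was also carried by few cells, 16 of the iIRE members and 32 of the control members. The folate receptor Folr2 stood at 915 against 219 CPM in the iIRE library and at 676 against 171 CPM in the control library, with log2 ratios of 2.01 (1.87 to 2.25) and 1.92 (1.79 to 2.16). The mannose receptor Mrc1 had log2 ratios of 1.36 and 1.43, the selenium carrier Selenop of 1.34 and 1.21, and the chemokine Pf4 of 0.66 and 1.06. Selenop was found in 59.0% and 64.8% of tumor-type cells at 87.0 and 87.3 CPM, so single UMIs of it say little about a cell.

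**Figure D1:**
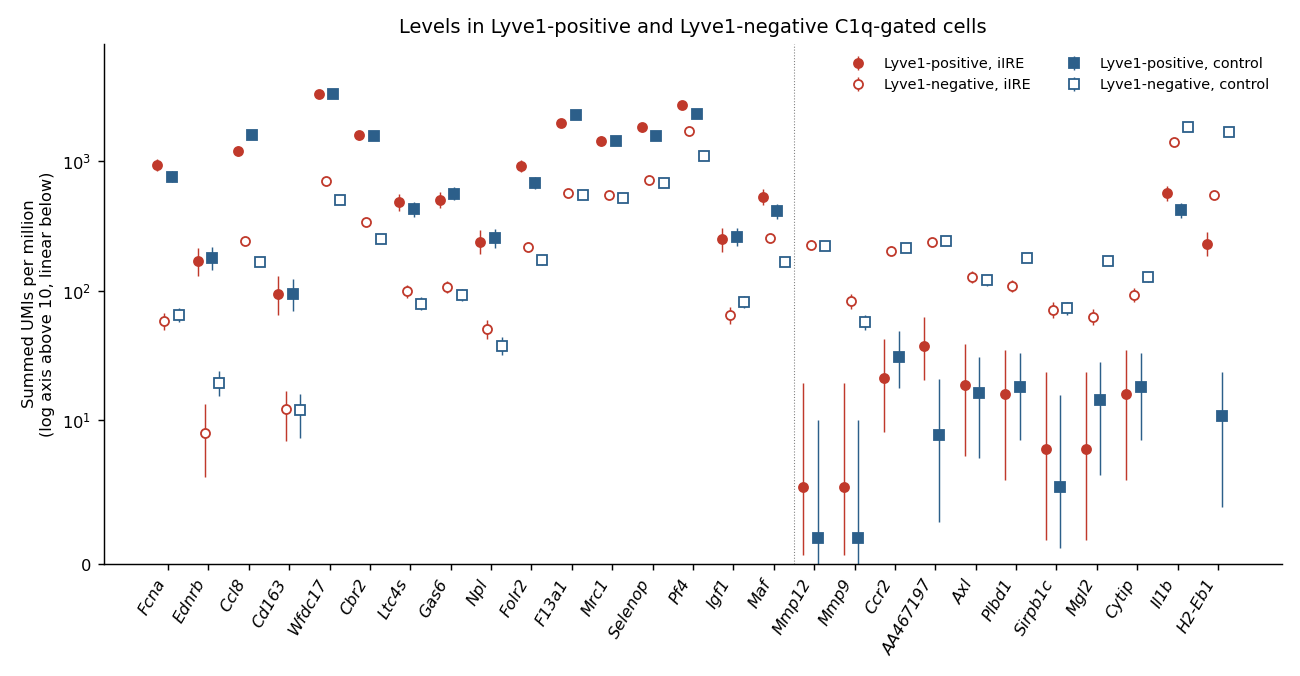
Levels of 27 genes in Lyve1-positive (filled) and Lyve1-negative (open) C1q-gated cells of the iIRE library (red circles) and the control library (blue squares), in CPM, with exact 95% Poisson intervals for counting error. Left of the dotted line, all 16 genes are higher in the Lyve1-positive cells of both libraries, and right of it all 11 are lower.

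The promoters of the genes that were higher are shown next. Maf, a transcription factor that binds sites containing TGCTGA, was among these genes (531 and 410 CPM against 254 and 167 CPM). Its part in the levels of the others was not tested. Of 19 genes, the 15 of the list and those named by rank, 16 had a RefSeq promoter window of GRCm38.p6, from 250 bases before to 50 bases after a start site, in 20 windows. Lyve1, Maf and Siglec1 had no entry. TGCTGA was found on either strand in 7 of the 20 windows (35.0%), in those of Cbr2, Ccl8, Ednrb, Fcna, Folr2 and Stab1, and in 19.5% of all 32851 windows. GAGGAA, the core bound by the macrophage factor PU.1, was found on either strand in 13 of the 20 windows (65.0%) and in 28.3% of all. The windows of the 3 genes with the largest ratios after Lyve1 follow, written 5′ to 3′ along the gene, with TGCTGA and its reverse complement in capitals. Fcna lies at chr2:25627925-25628224 on the minus strand, Ednrb at chr14:103843652-103843951 on the minus strand and Ccl8 at chr11:82114935-82115234 on the plus strand.
Fcna: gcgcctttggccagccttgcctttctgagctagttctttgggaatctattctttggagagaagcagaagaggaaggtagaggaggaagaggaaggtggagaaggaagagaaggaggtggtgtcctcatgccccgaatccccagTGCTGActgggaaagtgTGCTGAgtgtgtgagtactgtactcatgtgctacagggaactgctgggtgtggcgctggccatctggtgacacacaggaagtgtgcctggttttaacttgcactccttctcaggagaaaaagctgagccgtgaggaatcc
Ednrb: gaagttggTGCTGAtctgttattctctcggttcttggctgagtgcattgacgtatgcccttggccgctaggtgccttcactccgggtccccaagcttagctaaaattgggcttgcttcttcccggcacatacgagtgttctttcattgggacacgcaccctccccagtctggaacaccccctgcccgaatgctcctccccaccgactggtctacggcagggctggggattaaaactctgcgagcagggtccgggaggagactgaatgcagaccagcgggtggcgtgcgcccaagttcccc
Ccl8: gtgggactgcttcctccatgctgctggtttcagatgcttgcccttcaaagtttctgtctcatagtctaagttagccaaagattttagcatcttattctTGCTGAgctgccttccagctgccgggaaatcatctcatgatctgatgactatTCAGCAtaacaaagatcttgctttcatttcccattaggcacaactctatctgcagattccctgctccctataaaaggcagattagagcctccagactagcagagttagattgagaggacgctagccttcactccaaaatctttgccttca

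In Fcna the matches began 107 and 90 bases before the start site, in Ccl8 152 and 100 bases before it, and in Ednrb 242 bases before it. These are matches of letters, with no binding measured, and none overlapped a GAGGAA match in these 3 windows.

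Secreted factors and clearance genes differed gene by gene. Of 17 chemokines, 7 were higher in the Lyve1-positive cells of both libraries. They were Pf4 and the CC chemokines Ccl3, Ccl4, Ccl6, Ccl7, Ccl8 and Ccl12, which recruit monocytes and other leukocytes. Ccl7, a ligand of Ccr2, stood at 4042 against 2027 CPM in the iIRE library and at 4159 against 1869 CPM in the control library. Cxcl3, Cxcl9 and Cxcl14 were lower. Of 16 growth factor genes, Igf1, Pdgfc, Gdf15, Bmp2, Gas6 and Grn were higher, and Vegfa, Areg and Tgfbi were lower. Igf1, a growth factor of resident macrophages, stood at 248 against 64.3 CPM in the iIRE library and at 261 against 82.0 CPM in the control library. Of the cytokines, Il10, which dampens inflammation, stood at 157 against 57.2 CPM and at 133 against 49.7 CPM. The proinflammatory Tnf was also higher, with log2 ratios of 0.60 and 0.98, and Il1b was lower, at 565 against 1400 CPM in the iIRE library and at 417 against 1845 CPM in the control library.

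Of 18 lysosomal genes, 7 were higher and 0 were lower. They were the proteases Ctsb and Ctsd, Lamp1, Hexa, the acid lipase Lipa, Cd68 and Grn, with log2 ratios between 0.65 and 1.11. Of 12 iron and heme genes, 3 were higher, namely the heme oxygenase Hmox1, the biliverdin reductase Blvrb and Cd163. Of 14 scavenger and lectin receptors, Mrc1, Stab1 and Cd163 were higher and the C-type lectin Mgl2 was lower. Of 17 efferocytosis genes, Gas6 and Stab1 were higher, while Axl, a receptor for Gas6, and the bridging protein Mfge8 were lower. Axl stood at 18.7 against 127 CPM in the iIRE library and at 16.2 against 120 CPM in the control library. Mertk, the other main macrophage receptor for Gas6, stood at 109 against 92.7 CPM and at 138 against 85.0 CPM, which did not pass 1.5-fold in both libraries.

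Of 12 monocyte genes, 6 were lower and 0 were higher. The chemokine receptor Ccr2 was found in 3 of 60 iIRE members and 5 of 74 control members, and in 33.5% and 40.3% of Lyve1-negative cells. It stood at 21.3 against 203 CPM in the iIRE library and at 30.6 against 215 CPM in the control library. Ly6c2 gave 12 UMIs in the iIRE members, each of them in 1 cell, and 0 in the control members. All 6 MHC class II genes with enough UMIs were lower, with median log2 ratios of -1.19 in the iIRE library and -5.10 in the control library. The iIRE value depended on 1 member with 439 of the 534 UMIs of H2-Aa, H2-Ab1, H2-Eb1 and Cd74. Without the top cell for each gene, the iIRE ratios were -4.66 for H2-Aa, -4.58 for H2-Eb1, -3.75 for Cd74, -2.81 for H2-Ab1, -1.01 for H2-DMb1 and -0.99 for H2-DMa. The elastase Mmp12 differed most, with 2 and 1 UMIs in the members of the iIRE and control libraries, against 227 and 219 CPM in the Lyve1-negative cells. Mmp9 also had 2 and 1 UMIs in the members. Itgax, the CD11c gene of dendritic cells and some macrophages, was at 0 in all 134 members, against 65 UMIs in 36 and 144 UMIs in 76 Lyve1-negative cells of the iIRE and control libraries. The remaining genes that differed most in this direction were AA467197, Plbd1, Sirpb1c, Napsa, Mgl2 and Cytip.

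Of 16 immediate-early and heat shock genes, Junb, Nr4a1, Hspa1a, Hspa1b and Hsph1 were lower and 0 were higher. Of 12 interferon-stimulated genes, none was past 1.5-fold in the same direction in both libraries. Of 15 genes of immunosuppression and checkpoints, only Il10 was called. Of 14 lipid-associated macrophage genes, Ctsd and Ctsb were higher and Lpl and Cd9 were lower. Trem2 stood at 656 against 555 CPM in the iIRE library and at 555 against 513 CPM in the control library. Arg1, often used as a marker of alternatively activated macrophages, stood at 1245 against 1174 CPM in the iIRE library and at 1210.0 against 1213 CPM in the control library. Acp5, Mmp9 and Dcstamp of the osteoclast markers were lower in the members. The collagen genes Col1a1, Col1a2 and Col3a1 were lower as well, and 313 of the 453 fibroblast marker UMIs of the Lyve1-negative iIRE cells and 1216 of the 1501 of the control cells lay in 1 cell each.

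Of the 85 genes named or listed here that were called, 76 remained called in the same direction when the single cell with the most UMIs of the gene was left out of each group, a check added after the data were seen. The 9 that did not were Ccl12, Ccl6, Pf4, Tnf, Pdgfc, Hmox1 and the 3 collagen genes. The minimum of UMIs was not applied again after the cell was left out.

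Members differed among themselves by the number of Lyve1 UMIs. With 0, 1, 2 and 3 or more Lyve1 UMIs, Fcna stood at 58.2, 539, 475 and 1455 CPM in the iIRE library and at 64.8, 577, 361 and 976 CPM in the control library. Cells with a single Lyve1 UMI thus stood well above Lyve1-negative cells in both libraries. Mrc1 stood at 551, 1021, 1056 and 1918 CPM in the iIRE library and at 522, 998, 1529 and 1685 CPM in the control library. Il1b ran the other way in the iIRE library, at 1400, 866, 926 and 166 CPM, and at 1845, 270, 1098 and 346 CPM in the control library. Depth moved with the count in the control library, where the median was 5929 UMIs in members with 1 Lyve1 UMI and 9165.5 UMIs in those with 3 or more, against 5630 and 5913 UMIs in the iIRE library. Its part in these values was not tested.

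**Figure D2:**
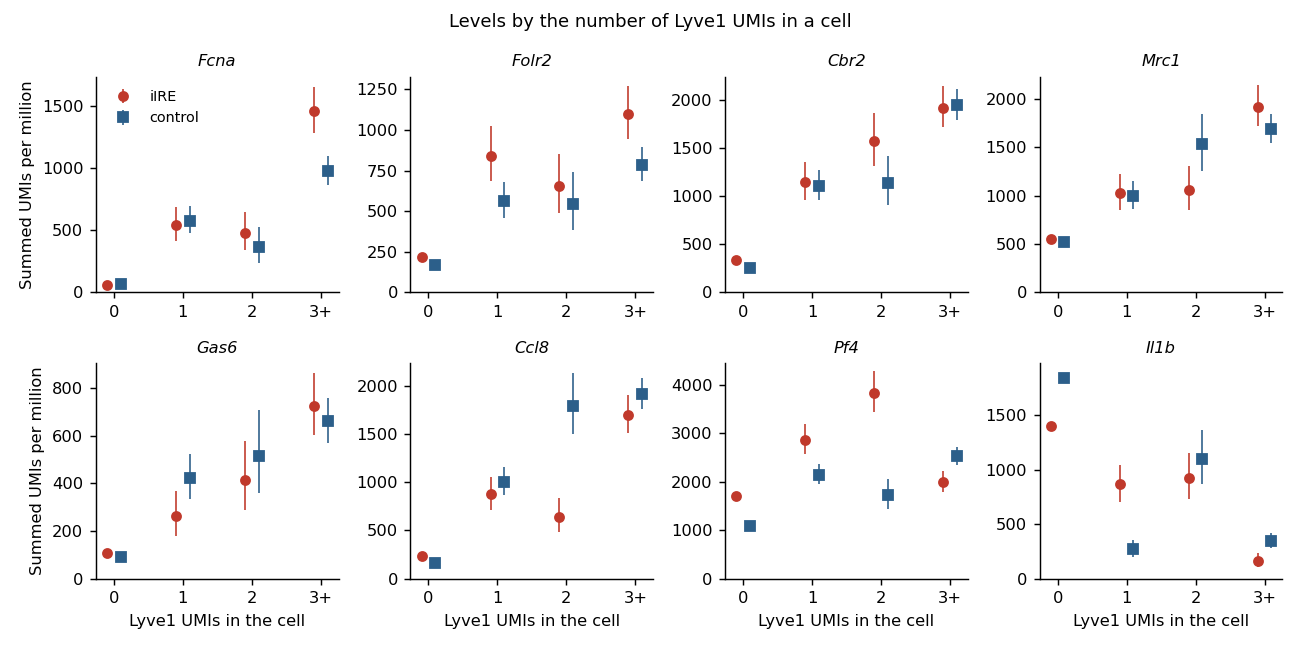
CPM of 8 genes (vertical axes, each from 0) in C1q-gated cells with 0, 1, 2 and 3 or more Lyve1 UMIs, in the iIRE library (red circles) and the control library (blue squares), with exact 95% Poisson intervals. Fcna, Cbr2 and Gas6 are highest in cells with 3 or more Lyve1 UMIs in both libraries, and Il1b is highest in cells with 0.

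Timd4, the phosphatidylserine receptor of long-lived resident macrophages, was found in 7 iIRE members and 10 control members (11.7% and 13.5%, or 8.62% and 2.82% at 2000 UMIs per cell), in 1.62% and 1.46% of Lyve1-negative cells and in 0.261% and 0.336% of tumor-type cells. Members with Timd4 had more of the other resident-like genes. The 14 called resident-like genes other than Lyve1 took 21358 CPM in them against 13179 CPM in members without Timd4 in the iIRE library, and 19598 against 12037 CPM in the control library. Fcna stood at 2361 against 704 CPM and at 2022 against 489 CPM. In the iIRE library 1 cell with Timd4 held 90 of the 124 Fcna UMIs of these 7 cells, whose median was 4, and 1 cell held 517 of their 1122 resident-like UMIs. In the control library the highest of the 10 cells held 51 of 198 Fcna UMIs. Members with Ccr2 were 3 and 5 cells. Their 14 resident-like genes took 9587 CPM in the iIRE library and 11124 CPM in the control library, against 14708 and 13546 CPM in members without Ccr2. In the iIRE library these 3 cells held 500 of the 534 UMIs of H2-Aa, H2-Ab1, H2-Eb1 and Cd74 found in all members.

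**Figure D3:**
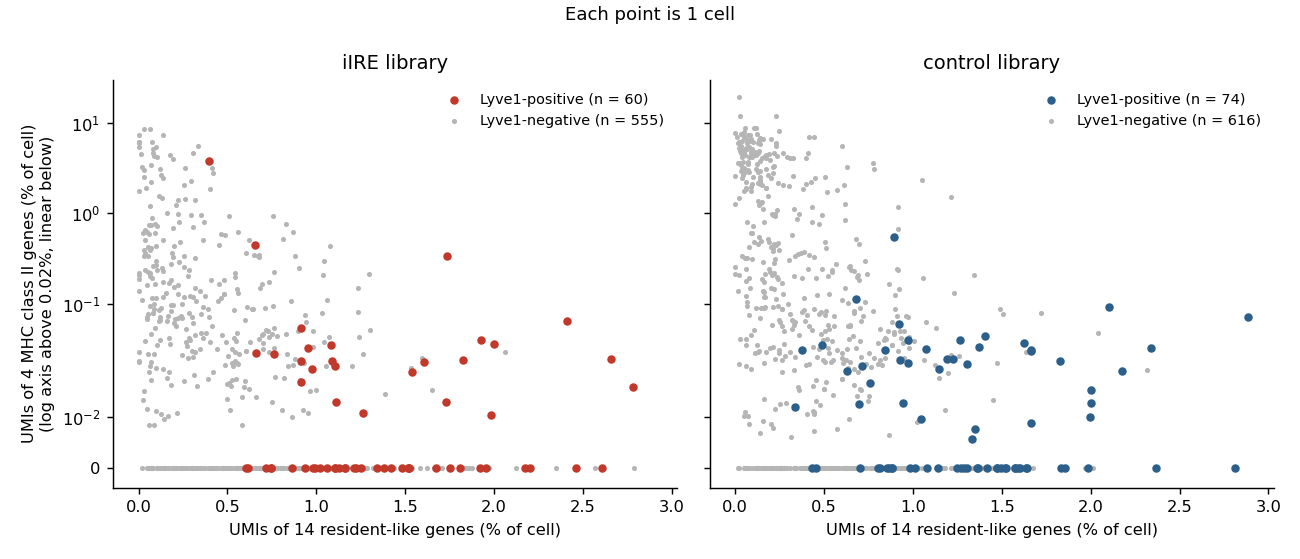
Share of each cell's UMIs from 14 resident-like genes (horizontal axis, %) and from the MHC class II genes H2-Aa, H2-Ab1, H2-Eb1 and Cd74 (vertical axis, %, logarithmic above 0.02%), for Lyve1-positive cells (colored) and Lyve1-negative cells (gray) of the iIRE library (left) and the control library (right). A single iIRE member, at 3.76% MHC class II, lies among the gray cells of high MHC class II, and 35 of 60 iIRE members and 36 of 74 control members lie at 0.

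Per cell, the 14 resident-like genes took a median of 1.22% of UMIs in the iIRE members (0.393 to 2.78%) and 1.29% in the control members (0.339 to 2.89%). In Lyve1-negative cells the medians were 0.482% and 0.363%, with highest values of 2.79% and 2.32%, so the cell groups overlapped. In the iIRE library the highest Lyve1-negative cell was at the level of the highest member, and in the control library it was below it.

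The iIRE and control members were then compared with each other, which addresses how these macrophages differ 3 days after iIRE. Of 2763 genes with at least 50 UMIs over both libraries, 77 were past 1.5-fold higher in the iIRE members (2.79%) and 122 were lower (4.42%), with a median log2 ratio of -0.01. In Lyve1-negative cells, which hold more UMIs, 52 of 8365 genes were higher (0.622%) and 68 were lower (0.813%). At 50 UMIs, a gene with no difference has an interval from -0.91 to 0.85 on the log2 scale, taken without the 10 CPM. That is wider than the 1.5-fold limit, so a call on so few UMIs can lie within counting error. At 200 UMIs the interval is -0.41 to 0.43. Of 16 resident-like genes, only Vsig4 was past 1.5-fold, and the list had a median log2 ratio of 0.10. Folr2 stood at 915 CPM in the iIRE members and 676 CPM in the control members, a log2 ratio of 0.43 (0.22 to 0.65), and at 0.34 (0.20 to 0.51) in Lyve1-negative cells.

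The genes with the largest ratios were often carried by 1 cell. The 10 highest in the iIRE members were H2-Eb1, S100a9, S100a8, H2-Aa, H2-Ab1, Cd74, Vsig4, U2af2, Rsrp1 and Tnfsf9. For the MHC class II genes the ratios had opposite signs in all members and in the Lyve1-negative cells, but not in members with 2 or more Lyve1 UMIs, where they were -1.44 for Cd74, -2.50 for H2-Aa, -0.0030 for H2-Ab1 and -0.23 for H2-Eb1. H2-Eb1 stood at 229 CPM in the iIRE members and 10.8 CPM in the control members, a log2 ratio of 3.53, and at 543 and 1677 CPM in the Lyve1-negative cells, a log2 ratio of -1.61. Yet 82 of its 86 UMIs in the iIRE members lay in 1 cell, and so did 71 of 76 of H2-Aa, 66 of 89 of H2-Ab1 and 220 of 283 of Cd74. The cell that held the most MHC class II UMIs of the members, 439 of 534, had 11691 UMIs and 1 Lyve1 UMI. Among the control members, 1 cell with 12 Lyve1 UMIs held 16 of 17 UMIs of H2-Aa and 47 of 140 MHC class II UMIs. Members with 2 or more Lyve1 UMIs thus leave out the top iIRE cell and keep the top control cell. In members with fewer than 10 MHC class II UMIs, 57 and 71 cells, 34 UMIs of these genes were left in the iIRE library and 67 in the control library. With the top cell for each gene left out, the log2 ratios were 0.44 for H2-Eb1, 1.01 for H2-Aa, 0.66 for H2-Ab1 and 0.43 for Cd74.

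S100a8 and S100a9, the alarmin genes of neutrophils, had 47 and 51 UMIs in the iIRE members against 5 and 3 in the control members, and 31 and 39 of these lay in 1 cell. Neutrophil markers stood at 285 CPM in the iIRE members and 30.6 CPM in the control members, with Retnlg and Cxcr2 at 0 in both. Their part in the result was not tested. In Lyve1-negative cells S100a9 was higher as well, with a log2 ratio of 1.37. Without the top cell in each library, its ratio there was 0.46, and that of S100a8 was 0.20, both short of 1.5-fold.

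Other genes that were higher were spread over more cells. Vsig4, a complement receptor of resident macrophages, stood at 117 CPM in the iIRE members and 37.7 CPM in the control members, in 9 and 6 cells, with a log2 ratio of 1.42 (0.86 to 2.46). Tnfsf9 (4-1BB ligand) had 75 and 48 UMIs in 25 and 17 cells, with a log2 ratio of 1.12. Il1rn, the natural antagonist of the interleukin-1 receptor, stood at 208 and 93.5 CPM in 24 and 21 cells, with a log2 ratio of 1.08 (0.63 to 1.69). Its ratio in Lyve1-negative cells was 0.01 (-0.14 to 0.16). Bmp2, the complement gene C4b and the tetraspanin gene Cd9 had log2 ratios of 0.66, 0.60 and 0.65. These 6 genes kept their calls when the top cell was left out.

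Hmox1 was the most abundant of the 10 genes that were lowest in the iIRE members. It encodes the enzyme that degrades heme, and stood at 645 CPM in 38 iIRE members and at 1623 CPM in 54 control members, a log2 ratio of -1.32 (-1.54 to -1.12). Without the top cell in each library, which held 93 of 242 and 205 of 903 UMIs, the ratio was -1.66. Hmox1 was also lower in Lyve1-negative cells of the iIRE library, at 399 against 754 CPM, a log2 ratio of -0.90. The iron exporter Slc40a1 (26.7 against 89.9 CPM) and the ferritin receptor Ncoa4 (48.0 against 86.3 CPM) were lower too. They rested on few UMIs, 10 against 50 for Slc40a1 and 18 against 48 for Ncoa4. Of 11 iron and heme genes, 3 were thus lower and 0 were higher, beside 4.42% and 2.79% of all genes counted.

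The remaining lowest genes were Ccl5, Rsad2, Padi4, Isg15, Cxcl10, Tmx4, Oasl1 and Rgs2. Of the interferon-stimulated and chemokine genes among them, 1 control cell for each gene held 97 of 114 UMIs of Rsad2, 94 of 141 of Isg15, 101 of 200 of Cxcl10 and 54 of 72 of Ccl5, and 22 of 43 of Oasl1. Without the top cell in each library, the log2 ratios were -2.11 for Ccl5, -1.46 for Cxcl10, -0.96 for Rsad2 and -0.75 for Oasl1, all still past 1.5-fold. Isg15 had -0.41 and was no longer past it. Padi4 (6 against 44 UMIs, in 6 and 17 cells) and Rgs2, a regulator of G protein signaling (75 against 200 CPM, in 18 and 38 cells) were spread more widely, with log2 ratios of -1.78 and -1.31, and of -1.66 and -1.31 without the top cell. Their ratios in Lyve1-negative cells were -0.41 and 0.18.

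The immediate-early genes Fos and Jun had log2 ratios of -0.60 and -0.82 in the members and of -0.39 and -0.34 in Lyve1-negative cells. Spp1 (osteopontin) stood at 648 CPM in the iIRE members and 1014 CPM in the control members, and at 1323 and 1047 CPM in Lyve1-negative cells. Tumor-type cells of the iIRE library held 7574 CPM of Spp1, and the part of free RNA in these levels was not tested. The scavenger receptor Cd36 stood at 61.3 and 138 CPM. Il6 had 0 UMIs in the iIRE members and 34 in 7 control members, fewer than the 50 UMIs needed for a call. Without the top cell, 23 UMIs were left in the control members. With 3 UMIs put in place of the count of 0, Il6 was 7.64-fold lower in the iIRE members. That value leaves out the spread between cells, so it is not a lower limit of the difference.

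Some lists held few or no genes past 1.5-fold. Over all 2763 genes 2.79% were higher and 4.42% lower, so 0 or 1 gene of a short list lies near that share. Of 13 transcription factor genes, 0 were past 1.5-fold. Of 18 lysosomal genes only the cathepsin Ctsh was, with a log2 ratio of -0.60, and -0.55 without the top cell. Arg1 had a log2 ratio of 0.04, Apoe of -0.16 and Il10 of 0.23 (-0.33 to 0.80).

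**Figure D4:**
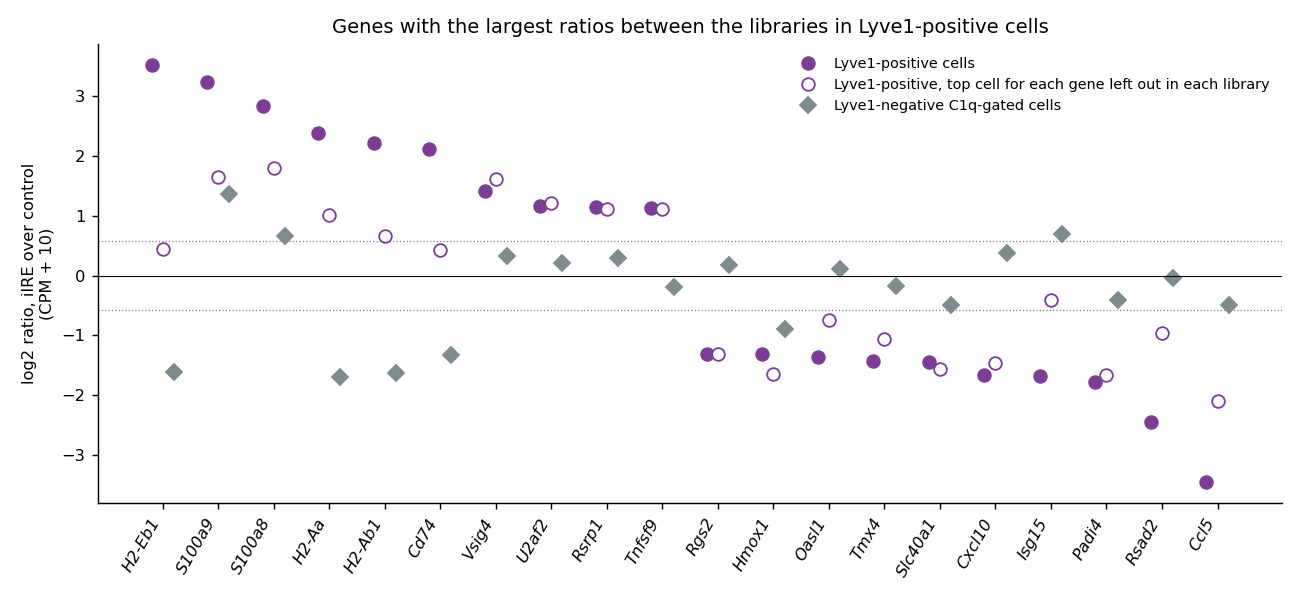
Log2 ratio of iIRE over control (vertical axis, after 10 CPM was added) for the 10 highest and 10 lowest genes in Lyve1-positive cells (filled circles), in the same cells without the cell holding the most UMIs of the gene in each library (open circles), and in Lyve1-negative cells (diamonds). Dotted lines mark 1.5-fold. The MHC class II genes lie between 2.11 and 3.53 with all cells and between 0.43 and 1.01 without the top cell, and between -1.70 and -1.32 in Lyve1-negative cells. Without the top cell, H2-Aa rests on 5 against 1 UMIs and H2-Eb1 on 4 against 3.

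Of the 31 genes named or listed that were past 1.5-fold between the libraries in the members, 27 remained so in the same direction without the top cell. In Lyve1-negative cells, 3 of the 31 (Hmox1, S100a8 and S100a9) were called in the same direction and 5 (the MHC class II genes and Isg15) in the opposite direction, and the difference between the cell groups was not tested. S100a8 and S100a9 fell short of 1.5-fold in the Lyve1-negative cells without the top cell.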

How the data were processed

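Libraries of 10x Genomics 5′ single-cell RNA were used, 1 for iIRE and 1 for control. The deposited values are raw UMI counts of 32285 genes, made by the authors with Cell Ranger and STAR on mm10 and not filtered as in their methods. The matrix header names Cell Ranger 7.0.1. The ending of a barcode gave its library. Members and gene lists were chosen with earlier results of these data known. Of 303 list genes, 2 were not analysed here.

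UMI counts were summed over the cells of a library and scaled to their total (CPM). Log2 ratios were taken after adding 10 CPM to both. Genes with at least 50 UMIs were counted, and those past 1.5-fold called. Intervals are Clopper-Pearson for shares, Poisson for sums and conditional binomial for ratios (SciPy 1.17.1). Those of ratios use the counts without the added 10 CPM. Cells were thinned to 2000 UMIs for shares of cells, which left out 2 iIRE and 3 control members. No doublet caller was run.

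Named genes were the markers, the list genes that were called or high, and the 10 highest and 10 lowest ratios in each comparison among genes of at least 50 UMIs and 20 CPM in a group compared. Mitochondrial, ribosomal protein, hemoglobin, immunoglobulin, T cell receptor, Y-linked and unnamed genes and Xist were left out of the ranking. The steps were tested on simulated data. Alternatives changed the member rule, the pseudocount, the minimum of UMIs, the scaling and the depth, 1 at a time.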

Additional observations from a re-analysis of the deposited data

Results flagged for a closer look

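The genes Cd74, H2-Aa, H2-Ab1, H2-Eb1 and Isg15 had ratios of iIRE over control past 1.5-fold in opposite directions in Lyve1-positive and Lyve1-negative cells, and the difference was not tested. The log2 ratios in Lyve1-positive cells were 2.11 for Cd74, 2.39 for H2-Aa, 2.22 for H2-Ab1, 3.53 for H2-Eb1 and -1.68 for Isg15. In Lyve1-negative cells they were -1.32, -1.70, -1.64, -1.61 and 0.70. Without the cell with the most UMIs of the gene in each library, the Lyve1-positive ratios were 0.43, 1.01, 0.66, 0.44 and -0.41. For H2-Aa and H2-Eb1 these rested on 5 against 1 and 4 against 3 UMIs. In members with 2 or more Lyve1 UMIs, the ratios of the MHC class II genes turned to -1.44 for Cd74, -2.50 for H2-Aa, -0.0030 for H2-Ab1 and -0.23 for H2-Eb1. These keep 1 control cell that held 16 of the 17 H2-Aa UMIs of the control members.

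Lyve1 UMIs were also found in C1q-positive cells that the proliferation or tumor transcript limits left out, which enter no comparison of the report. They numbered 386 in the iIRE library and 325 in the control library, at 119 and 86.8 CPM, against 0.859 and 0.589 CPM in tumor-type cells.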

How the results depend on the processing

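The iIRE over control ratio of both shares of Lyve1-positive cells kept its direction and stayed within the interval of the reported ratio under the 8 settings tried. The share of Lyve1-positive cells among C1q-gated cells was itself lower in both libraries after thinning and with 2 or more Lyve1 UMIs. The genes past 1.5-fold in Lyve1-positive cells, iIRE over control, numbered 199 as reported, 64 with a pseudocount of 50 CPM, 664 with at least 20 UMIs of a gene, 19 with at least 200, 2081 with at least 1, and 92 after thinning to 2000 UMIs. The 409 genes past 1.5-fold between Lyve1-positive and Lyve1-negative cells numbered 153 with 50 CPM, 196 with at least 200 UMIs and 272 after thinning. Higher UMI minimums test fewer genes. With the top cell for each gene left out, a setting chosen after seeing the data, 221 and 470 genes were past 1.5-fold, 66 of the 77 higher and 113 of the 122 lower calls between the libraries were kept, and of 188 and 221 calls against Lyve1-negative cells, 136 and 216 were kept (28.9% of the calls higher, against 46.0%), a step that takes a larger part of the smaller group. In that setting the minimum of UMIs was applied before the top cell was left out, so kept calls can rest on fewer UMIs. With members of 2 or more Lyve1 UMIs, 20 of the 77 higher and 50 of the 122 lower calls were kept, among fewer cells and UMIs.

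In members with 2 or more Lyve1 UMIs, the log2 ratio of iIRE over control was -1.44 for Cd74, -2.50 for H2-Aa, -0.0030 for H2-Ab1, -0.23 for H2-Eb1 and 0.048 for Cd36. For H2-Aa, 16 of the 17 UMIs of the control members lay in 1 cell, which this setting keeps. U2af2 stood at -0.10 after thinning. In members over Lyve1-negative cells, Col1a2 in the iIRE library stood at 0.14 with the C1q criterion at 0.5%, and Col3a1 in the control library at 0.014 without tumor transcripts. The cause was not tested. Of the other values of named genes under these settings, 3035 counted as unchanged. Another 173 moved, whether to a larger or a smaller difference, without turning to the opposite direction. A value counted as unchanged inside the counting error interval of the reported ratio. It also did so if past 1.5-fold and nearer to that ratio than the interval's farther end. The settings of the UMI minimum leave a gene's ratio as it is, so their values were unchanged in advance. No paired analysis was possible because each group has 1 library. Depth limits genes of few UMIs most, since at 50 UMIs counting error alone exceeds the 1.5-fold limit.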

Other observations

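Of the Lyve1 UMIs of all cells past the quality filters, 29.0% in the iIRE library and 41.1% in the control library belonged to Lyve1-positive macrophages as defined here. Cells with under 0.3% C1q transcripts held 24.1% and 22.2%, in 186 and 149 cells.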
